A study of Mus musculus with 2 samples.

Results

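The dual-specificity MAP kinase phosphatases described here were Dusp5, Dusp1, Dusp2, Dusp4, Dusp6 and Dusp10, 6 of the 35976 gene rows counted in each plate. The set was chosen by the measured difference in Dusp5 level between the cell pools, so the Dusp5 level and share are descriptions that support nothing by themselves. The other members were taken as relatives of Dusp5. All 6 had a row in the tables, and all 6 reached 5 reads per 1000000 reads in genes (CPM) in at least 1 pool, Dusp4 only through the pool where it was higher.

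The study asked how IL-13 signalling bears on T follicular helper cells, which help B cells make antibody. OTII cells, CD4 T cells with a transgenic receptor for ovalbumin, were moved into host mice, recovered from the spleen and read by SmartSeq2, which sequences full-length cDNA of cells sorted singly into wells. Control hosts were C57BL/6 mice, pooled from 2 animals, and deleted hosts were IL13Ra1f/f, CD11cCre/+ mice, pooled from 3 animals. Recovery was on day 7, counted from CAS and a second priming, in both pools, and the abbreviation is not explained in the labels. CD11c-Cre acts mainly in dendritic cells, so the receptor gene was removed in host cells, and the OTII cells themselves were not altered. The sort took propidium iodide negative, Vb5.1-5.2 positive, CD4 positive cells without a named congenic marker, so host CD4 T cells with that receptor chain could have passed it.

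Mitogen-activated protein (MAP) kinases such as ERK, p38 and JNK are switched on by phosphorylation of a threonine and a tyrosine, and dual-specificity phosphatases remove both phosphates. Many of these phosphatase genes are themselves induced by MAP kinase signalling, for example after T cell receptor engagement, and so act as negative feedback. The products of Dusp1, Dusp2, Dusp4 and Dusp5 work in the nucleus, that of Dusp6 works on ERK in the cytoplasm, and that of Dusp10 prefers p38 and JNK. DUSP5 is specific for ERK, which it dephosphorylates and holds in the nucleus.

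Dusp5 and Dusp1 are the members whose plates did not overlap between the pools, and the 250 bases upstream of their starts are shown for that reason. The sequences are from RefSeq (GRCm38.p6) and run 5′ to 3′ on the strand of the gene. Capitals mark the CArG boxes, the motif bound by serum response factor, and the cyclic AMP response element (CRE, TGACGTCA) or its shorter core (TGACG), which overlaps the full element. The Dusp5 window lies at chr19:53528895-53529144 on the plus strand and the Dusp1 window at chr17:26508473-26508722 on the minus strand.
Dusp5: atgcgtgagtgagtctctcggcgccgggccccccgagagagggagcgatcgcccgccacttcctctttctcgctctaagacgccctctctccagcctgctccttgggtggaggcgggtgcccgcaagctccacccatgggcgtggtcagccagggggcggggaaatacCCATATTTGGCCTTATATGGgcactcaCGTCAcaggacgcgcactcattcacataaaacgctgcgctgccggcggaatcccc
Dusp1: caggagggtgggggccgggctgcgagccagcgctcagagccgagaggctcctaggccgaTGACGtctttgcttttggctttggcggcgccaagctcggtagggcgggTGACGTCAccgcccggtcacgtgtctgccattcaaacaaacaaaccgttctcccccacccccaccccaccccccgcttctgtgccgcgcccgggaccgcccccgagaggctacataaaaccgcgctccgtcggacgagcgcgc

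The Dusp5 window held 2 CArG boxes next to each other, from -82 to -73 and from -72 to -63 counted from the start, and 1 core on the reverse strand from -55 to -51. Of 32851 RefSeq promoter windows of the same length, 1.47% held a CArG box and 6 windows held 2 or more. The Dusp1 window held 1 full CRE from -143 to -136, and another core from -191 to -187. A full CRE was present in 1.55% of all windows and a core in 17.8%. No CArG box was matched in Dusp1 and no full CRE in Dusp5.

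Both strands were also searched for AP-1 (TGANTCA), NF-kappaB, STAT (TTCNNNGAA), ETS (CCGGAAG) and TATA box (TATAAA) letters, which 6.75%, 7.25%, 7.02%, 6.91% and 12.4% of all windows held. None of these 5 matched in the windows of the 5 members with an entry, and Dusp2, Dusp6 and Dusp10 matched none of the 8 motifs. A match is a description of the letters, and no match says only that they are not in this window.

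**Figure D1:**
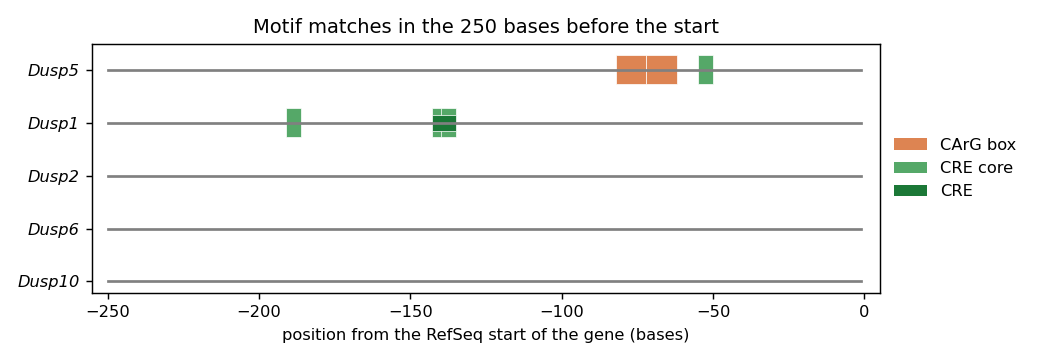
Positions of motif matches in the 250 bases upstream of 5 members, in bases from the start, with a row for each gene and a mark for each match. The 2 CArG boxes of Dusp5 lie between -82 and -63, the full CRE of Dusp1 lies between -143 and -136, and the other rows are empty.

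Each pool was 1 sample of 368 cell wells, 92 on each of 4 plates, with 573105030 reads in control hosts and 542650671 in deleted hosts. Median reads per cell were 1592794 and 1499762. With 1 pool per group there is no test between groups, and plates are splits of the same animals, so plate cannot be told apart from pool. Intervals of levels cover the counting of reads only, and those of shares the counting of cells only. Genes with 5 or more reads per cell had plate medians between 1510.5 and 1626 (control) and between 1520.5 and 1560 (deleted). The 8 CD4 T cell markers with a row together reached 7767 CPM (7418 to 8327 by plate) in the control pool and 8083 CPM (7669 to 9023 by plate) in the deleted pool, so the cells match their label by these markers. B cell markers summed to 5.12 and 6.33 CPM, CD8 markers to 26.5 and 9.47 CPM, myeloid and dendritic cell markers to 108 and 98.1 CPM, regulatory T cell markers to 379 and 340.3 CPM, and erythroid and platelet markers to 12.2 and 13.8 CPM. No marker in these lists was at 0. Natural killer and innate lymphoid markers, 2 of 7 at 5 CPM or more, reached 30.6 CPM (20.5 to 41.9 by plate) in the control pool and 52.5 CPM (44.3 to 61.2 by plate) in the deleted pool, so they moved with Dusp5 and Dusp1, and their part in those differences was not tested.

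Dusp5 was low in control hosts and much higher in deleted hosts. The gene lies at chromosome 19, 53529145 to 53541809 (GRCm38), on the plus strand. An exon of 1 gene model on the opposite strand, without a row among the counts, overlaps that span. Overlap with the Dusp5 exons themselves was not examined. The Dusp5 level was 27.2, 25.7, 44.0 and 48.4 CPM on the 4 control plates. On the 4 deleted-host plates it was 221, 278, 153 and 219.6 CPM. Every deleted-host plate was above every control plate, and the lowest of the former was 3.17 times the highest of the latter. Over the pools Dusp5 was at 36.5 CPM (Poisson 95% interval 36.0 to 37.0) and 218 CPM (216 to 219), a ratio of 5.96, or a log2 ratio of 2.54 with a pseudocount of 1 CPM. It ranked 4 from the top among 7207 genes with 20 CPM or more in either pool, a rank that chose the set.

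The Dusp5 difference lay both in how many cells carried the transcript and in how much each carrying cell held. A cell was counted as positive at 10 CPM or more. In control hosts 44 cells were positive, 11.96% (Clopper-Pearson 95% interval 8.82 to 15.7%), with 6.52%, 10.9%, 15.2% and 15.2% on the plates. In deleted hosts 141 cells were positive, 38.3% (33.3 to 43.5%), with 38.04%, 39.1%, 35.9% and 40.2% on the plates. The shares of the plates did not overlap either. The ratio of the shares was 3.20, and the ratio of the medians in positive cells was 1.81.

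Among positive cells the median was 237 CPM in control hosts, with quartiles of 129 and 357, and 430.3 CPM in deleted hosts, with quartiles of 221 and 723. Cells at 1000 CPM or more numbered 1 in control and 21 in deleted hosts (0.272% and 5.71%), and the highest single cell was at 1057 and 5052 CPM. The highest cell supplied 10.02% of the Dusp5 reads of the control pool and 5.93% of those of the deleted pool. Few cells lay just above the threshold, with 4 and 9 cells between 10 and 50 CPM. Cells between 1 and 10 CPM were more frequent, 70 and 109, and 156 and 54 cells had no Dusp5 read (42.4% and 14.7%). The 9 wells named noinput or dw were taken to hold no cell, although the labels do not explain dw, and they held 0 to 2 Dusp5 reads each. Counting cells with more Dusp5 reads than any such well gave 18.5% and 53.8%. Median depth was 1617651 and 1501409 reads in positive cells and 1590168 and 1495720 reads in the other cells of the control and deleted pools.

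**Figure D2:**
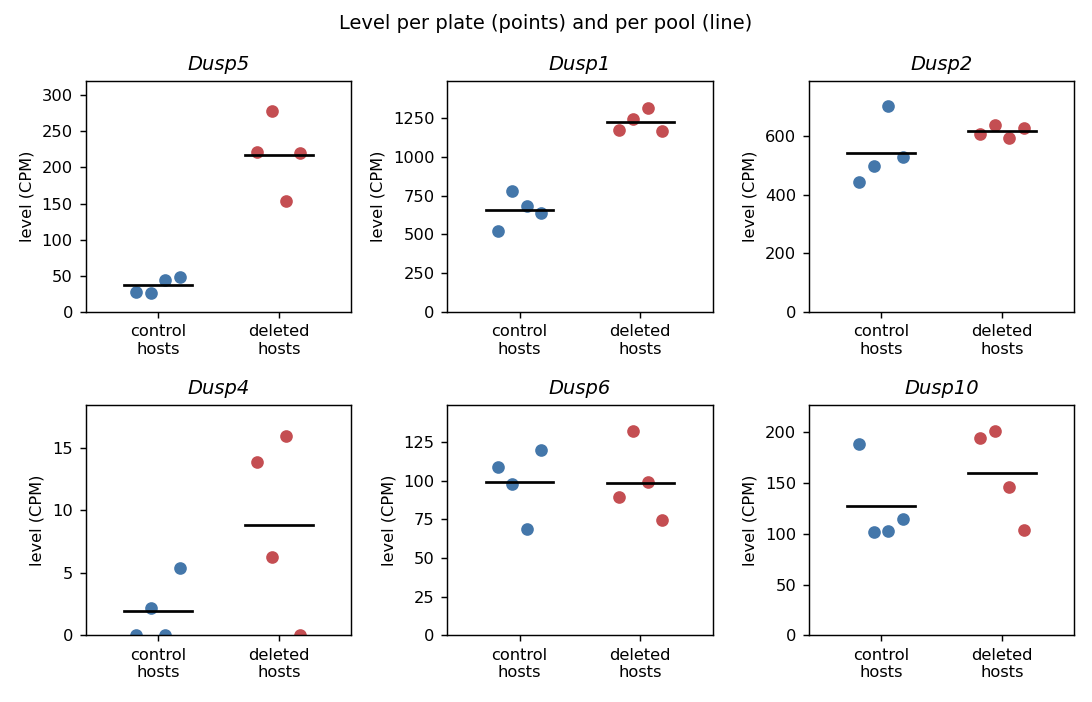
CPM of each of the 6 members on the 4 control and 4 deleted-host plates, 1 panel per gene and 1 point per plate, with the pool value as a line. Dusp5 (25.7 to 48.4 against 153 to 278 CPM) and Dusp1 (525 to 783 against 1169.8 to 1317 CPM) do not overlap, and the other 4 members do.

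Dusp1, a broad nuclear phosphatase of p38, JNK and ERK and a classic immediate early gene, was the other member without overlap. It lies at chromosome 17, 26505591 to 26508472, on the minus strand. The control plates were at 525, 783, 683 and 639 CPM and the deleted-host plates at 1174, 1249, 1317 and 1169.8 CPM. All 4 deleted-host plates were above the highest control plate, by a factor of 1.49 at the closest. The pools were at 656 CPM (654 to 658) and 1228 CPM (1225 to 1231), a ratio of 1.87 and a log2 ratio of 0.90. That is under 2-fold, and Dusp1 ranked 255 from the top of the 7207 genes.

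Dusp1 was positive in 55.2% of the control cells (interval 49.9 to 60.3%) and in 75.8% of the cells from deleted hosts (71.1 to 80.1%). By plate it was 57.6%, 60.9%, 60.9% and 41.3% in control hosts and 80.4%, 76.1%, 77.2% and 69.6% in deleted hosts. No plates overlapped in this share. Dusp1 was also the member with most reads in the noinput and dw wells, 10 to 20 per well, and 37 control and 51 deleted-host positive cells had no more reads than the highest of these. With only the cells above that level the shares were 45.7% and 62.0%. At 100 CPM or more they were 41.0% and 56.8%, and at 1000 CPM or more 27.7% and 45.7%. The median in positive cells was 1029 and 1297 CPM, so the pools stood apart less in this value than in the share of cells at 1000 CPM or more.

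Dusp2, the nuclear phosphatase first known from activated T cells as PAC-1, was carried by many cells at similar levels in both pools. On the plus strand of chromosome 2 (127336159 to 127338377), it reached 444, 497, 704 and 530.2 CPM on control plates and 608, 639, 595 and 628 CPM on deleted-host plates. The ranges overlapped because control plate 3 was the highest of the 8, and the control plates spread more widely. The pools were at 544 and 617 CPM, a log2 ratio of 0.18, which ranged from 0.10 to 0.33 with 1 plate left out at a time. Positive cells made up 52.4% (47.2 to 57.6%) and 50% (44.8 to 55.2%), and their medians were 872 and 969 CPM. Dusp2 was the only member with a lower share of positive cells in deleted hosts, by 2.45 percentage points, well within the intervals.

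Dusp4, a nuclear phosphatase of ERK and JNK, was detected in very few cells. The gene is at chromosome 8, 34807610 to 34819894, on the plus strand. Its plates were at 0.0209, 2.17, 0.0140 and 5.37 CPM in control hosts and 13.9, 6.27, 15.98 and 0.0208 CPM in deleted hosts. The ranges overlapped, since deleted-host plate 4 was as low as the lowest control plates. Only 2 control and 8 deleted-host cells were positive (0.543%, 0.0659 to 1.95%, and 2.17%, 0.943 to 4.24%). A single cell supplied 72.3% of the control reads and 24.4% of the deleted-host reads, so the pool values of 1.92 and 8.84 CPM (log2 ratio 1.75) rest on few cells. Its log2 ratio was 1.34 when deleted-host plate 3 was left out and 2.52 when control plate 4 was. In positive cells the medians were 302 and 300.4 CPM.

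Dusp6, the cytoplasmic phosphatase of ERK, did not separate the pools. It lies at chromosome 10, 99263231 to 99267489, on the plus strand, and was at 109, 98.1, 68.9 and 119.8 CPM on control plates and 89.7, 132, 99.5 and 74.5 CPM on deleted-host plates. High and low plates occurred in both pools. The pool levels were 99.2 and 98.8 CPM (log2 ratio -0.01, and -0.18 to 0.12 when any 1 plate was left out). It was carried by few cells at a high level, 33 control cells (8.97%, 6.25 to 12.4%) with a median of 859 CPM and 44 deleted-host cells (11.96%, 8.82 to 15.7%) with a median of 822 CPM. Its share of positive cells in deleted hosts was thus below that of Dusp5, which in control hosts had been positive in a similar number of cells.

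Dusp10, which acts on p38 and JNK, overlapped between the pools. From chromosome 1, 184034381 to 184075636, plus strand, it was read at 188, 101, 102 and 115 CPM on control plates and at 194, 201, 146 and 103 CPM on deleted-host plates. Control plate 1 was far above the other control plates, and deleted-host plate 4 was among the low ones. The pools were at 127 and 159 CPM. Their log2 ratio of 0.33 became 0.58 when control plate 1 was left out and 0.20 when deleted-host plate 2 was. Positive cells made up 19.0% (15.1 to 23.4%) and 25.8% (21.4 to 30.6%), with medians of 528 and 537 CPM.

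Of the 6 members, 2 (Dusp5 and Dusp1) had every deleted-host plate above every control plate, as did 1.81% of the 9764 genes with 5 CPM or more in either pool and 1.82% of the 7207 genes with 20 CPM or more. By size, 2 of the 6 (Dusp5 and Dusp4) were 2-fold or more higher in deleted hosts, as were 5.98% and 2.75% of those genes. No member was 2-fold or more lower, against 6.71% and 3.16%, and none had all its plates below those of control hosts, against 2.6% and 2.86%. Because Dusp5 chose the set, nothing is read from these counts. The median log2 ratio was -0.04 over all 9764 genes.

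**Figure D3:**
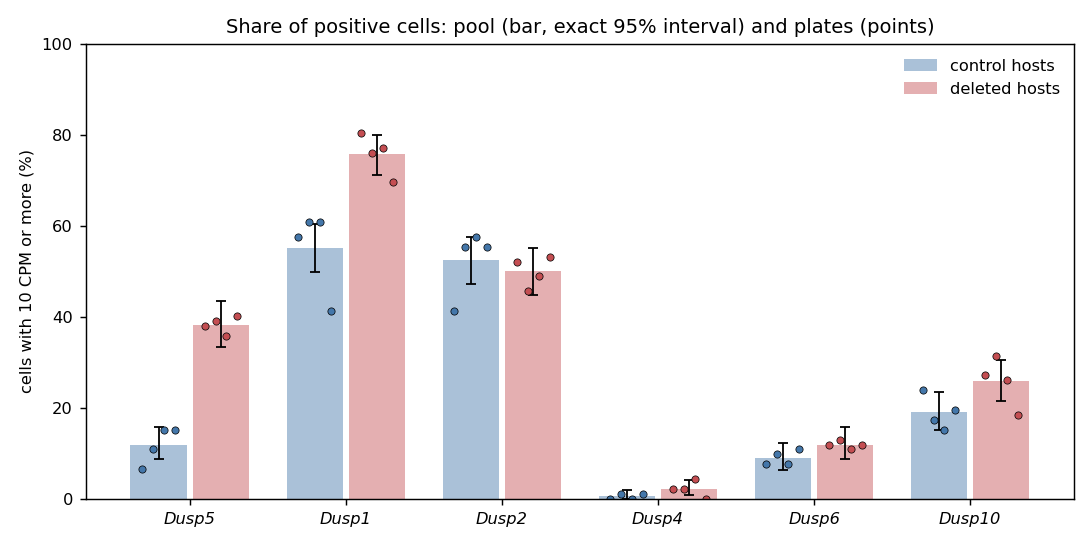
Percent of cells with 10 CPM or more of each member in control and deleted hosts, as bars from 0 with Clopper-Pearson 95% intervals and a point for each plate. Dusp5 (11.96% and 38.3%) and Dusp1 (55.2% and 75.8%) stand apart between the pools, and Dusp2 (52.4% and 50%) does not.

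**Figure D4:**
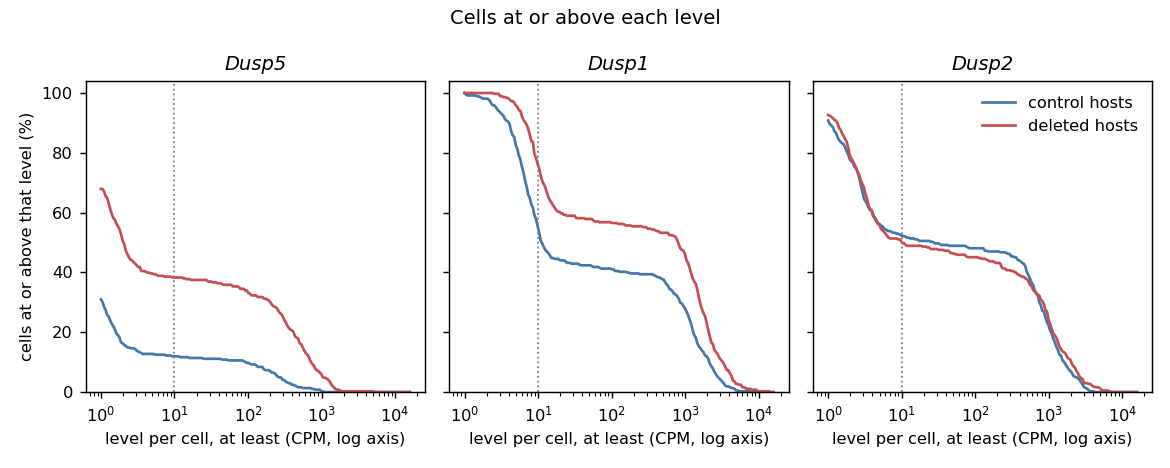
Percent of cells at or above each level of Dusp5, Dusp1 and Dusp2, on a log axis of CPM, with a line for each pool and a dotted line at 10 CPM. The Dusp5 and Dusp2 curves are nearly flat around 10 CPM, where the Dusp1 curves are steep, and at 1000 CPM the Dusp1 pools are at 27.7% and 45.7%.

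Levels of different members were compared as CPM per kilobase of the RefSeq-matched GENCODE transcript. In control hosts the order was Dusp2 at 336 (plates 275 to 435), Dusp1 at 329.7 (264 to 394), Dusp10 at 45.4 (36.3 to 67.2), Dusp6 at 35.5 (24.7 to 42.8), Dusp5 at 14.8 (10.4 to 19.6) and Dusp4 at 0.700. Dusp2 and Dusp1 overlapped over plates, as did Dusp10 and Dusp6, and Dusp5 was below all plates of these 4. In deleted hosts the order was Dusp1 at 617 (588 to 662), Dusp2 at 382 (368 to 395), Dusp5 at 88.0 (62.0 to 112), Dusp10 at 57.04 (37.0 to 72.0), Dusp6 at 35.3 (26.6 to 47.4) and Dusp4 at 3.23. There Dusp1 was above Dusp2 on every plate, and Dusp5 lay above every plate of Dusp6 while overlapping Dusp10. Dusp5 was thus the fifth in control hosts and the third in deleted hosts.

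Cells of deleted hosts were positive for more of the 6 members at once. The mean number of positive members per cell was 1.48 in control and 2.04 in deleted hosts. None of the 6 was positive in 55 control cells (14.9%) and 21 deleted-host cells (5.71%). At least 2 members were positive in 47.8% (42.6 to 53.1%) and 68.75% (63.7 to 73.5%) of cells, and at least 3 in 13.6% (10.3 to 17.5%) and 31.0% (26.3 to 36.0%). No control cell had 5 or more, while 4 deleted-host cells had 5 and 2 had all 6. These counts contain the Dusp5 and Dusp1 shares described above. They and the Dusp1 shares below include the 37 control and 51 deleted-host Dusp1-positive cells with no more reads than the highest noinput or dw well.

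Within a pool, Dusp5-positive cells were compared with the other cells for the other members. For Dusp2, the share of positive cells was 63.6% among 44 Dusp5-positive and 50.9% among 324 Dusp5-negative control cells. In deleted hosts it was 57.4% among 141 and 45.4% among 227 cells. The differences were 12.7 percentage points (Newcombe 95% interval -3.02 to 26.4) and 12.1 points (1.57 to 22.2), and they treat cells of a pool as separate draws although they share their animals. Dusp1 was positive in 52.3% of Dusp5-positive and 55.6% of Dusp5-negative control cells, and in 79.4% and 73.6% of deleted-host cells. The Dusp1 share was therefore lower beside Dusp5 in one pool and higher in the other, with both intervals of the difference spanning 0. Dusp10 was positive in 22.7% against 18.5% of control cells and 30.5% against 22.9% of deleted-host cells, and Dusp6 in 6.82% against 9.26% and 11.3% against 12.3%. No Dusp5-positive control cell had Dusp4, and 5 of 141 in deleted hosts did.

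Over cells, the Spearman correlations of the 15 pairs of members lay between -0.15 and 0.12 in 368 control cells and between -0.06 and 0.15 in 367 deleted-host cells with 10000 reads or more. Cells share plates and differ in depth, and correlations this weak in sparse counts are no finding. The same holds for the genes most like Dusp5 by the mean of their correlations in both pools, among 3804 genes with 50 CPM or more in both. These were Nab2, a corepressor of EGR proteins, at 0.16, Cops4 at 0.15, Ik at 0.14, Nfkbiz at 0.12 and Idh3b at 0.12. Nab2 was lower in deleted hosts (80.2 and 54.2 CPM), opposite to Dusp5 between the pools.

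The Dusp5 difference between pools was present in each class of cells described below that had 46 or more cells in each pool. That difference chose the set and the classes are parts of the same cells, so its presence there supports nothing by itself. The classes were chosen after levels in these data had been seen, and their median depths are given as a range, 1463124 to 1697182 reads. Cells positive for Cd69, an early activation receptor, carried Dusp5 in 18.7% of the 91 in control hosts and 43.9% of the 139 in deleted hosts. In Cd69-negative cells Dusp5 was positive in 9.75% of 277 and 34.9% of 229. Cd69-positive cells were more numerous in deleted hosts, and their part in the Dusp5 difference was not tested. In cells negative for Cd69 and for Nr4a1, a gene induced by receptor signals, the Dusp5 shares were 9.94% of 161 cells in control hosts (5.79 to 15.6%) and 28.1% of 89 in deleted hosts (19.1 to 38.6%). In cells positive for both they were 21.6% of 51 (11.3 to 35.3%) and 43.0% of 100 (33.1 to 53.3%).

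Egr1 encodes an early transcription factor induced through ERK. Egr1-positive cells carried Dusp5 in 21.5% (14.1 to 30.5%) of 107 control cells, against 8.05% (5.05 to 12.04%) of the 261 Egr1-negative ones. In deleted hosts the shares were 45.2% (34.3 to 56.5%) of 84 and 36.3% (30.7 to 42.2%) of 284. The Dusp5 share was higher beside Egr1 in both pools, with intervals that overlapped in deleted hosts only. These intervals treat cells of a pool as separate draws although they share their animals. Whether the pools differ in this was not tested. Cells positive for Tnfrsf9, the costimulatory receptor 4-1BB, carried Dusp5 in 15.2% of 46 and 53.1% of 64 cells, and Tnfrsf9-negative cells in 11.5% and 35.2%. Among cells positive for the follicle-homing receptor gene Cxcr5, the shares were 13.04% of 46 and 38.6% of 57, close to the 11.8% and 38.3% of Cxcr5-negative cells. For Cd44 the shares were 12.2% and 35.7% with the gene and 11.9% and 38.8% without it. Dusp1-positive cells had Dusp5 in 11.3% and 40.1%, and Dusp1-negative cells in 12.7% and 32.6%. Foxp3-positive cells were too few to compare, 0 of 8 and 2 of 6 being Dusp5-positive.

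Other genes of the MAP kinase system were described from lists of known members, by size alone, with no test. Shares of all genes given beside the counts are of the 9764 genes with 5 CPM or more in either pool. Of 10 other measured dual-specificity or MAP kinase phosphatases, 1 was 2-fold or more higher (5.98% of all genes) and 2 were lower (6.71%) in deleted hosts, with a median log2 ratio of -0.27. The higher one was Dusp22 (1.44 and 6.34 CPM), and the lower ones were Dusp19 (18.0 and 6.04 CPM, plates not overlapping) and Styxl1 (6.18 and 2.28 CPM), all named after their values were seen. Dusp22 and Styxl1 passed the 5 CPM filter only through the pool where they were higher. They rest on few positive cells in control and deleted hosts, 2 and 4 for Dusp22 and 6 and 1 for Styxl1. Without deleted-host plate 1 the log2 ratio of Dusp22 was 0.67, and without plate 4 of the same pool that of Styxl1 was -0.81. Among members above 20 CPM, Ptpn7, a tyrosine phosphatase of ERK in blood cells, was at 536 and 399 CPM, Styx at 30.8 and 22.0 CPM and Dusp11 at 166 and 152 CPM, all 3 with overlapping plates. Dusp7, a cytoplasmic relative of Dusp6 named after its values were seen, was at 19.6 and 9.32 CPM with overlap, and Dusp9, Dusp8 and Dusp16 were under 5 CPM.

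Of the 18 ERK cascade genes, 1 was 2-fold or more higher (5.98% of all genes) and 1 lower (6.71%), near the shares of all genes, and the median log2 ratio was -0.09. Sos2, a Ras exchange factor, was higher (4.51 and 21.4 CPM, log2 ratio 2.02, plates overlapping). Its log2 ratio was 1.70 when control plate 3 was left out and 2.94 when control plate 4 was. Sos2 passed the 5 CPM filter only through deleted hosts, with 11 control and 19 deleted-host positive cells. Mapk3, which encodes ERK1, was lower (10.2 and 2.06 CPM, log2 ratio -1.87, plates not overlapping) and was named after its value was seen. Mapk3 passed the filter only through control hosts, with 17 control and 4 deleted-host positive cells. Braf, a kinase upstream of ERK, was at 37.98 and 48.9 CPM and Rps6ka1 at 277 and 341 CPM, both with overlap. None of the 10 measured other inhibitors of ERK signalling was 2-fold apart, with a median of -0.18. Among them the Ras GTPase activators Rasa2, Rasa1 and Rasa3 were at 127 and 84.0, 116 and 148, and 485 and 399.8 CPM, and the adaptor gene Dok1 at 31.1 and 22.2 CPM.

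Of 17 measured genes of the p38 and JNK cascades, 2 were 2-fold or more higher (5.98% of all genes) and none was lower (6.71%), with a median log2 ratio of 0.14. Both were GADD45 genes, whose products bind and activate an upstream kinase of p38 and JNK. Gadd45g was at 5.95 and 23.6 CPM without overlap of plates, and Gadd45b at 40.4 and 106 CPM with overlap. The Gadd45b log2 ratio of 1.36 was 0.82 without deleted-host plate 2. Map2k6 was at 12.5 and 21.6 CPM and Mapkapk2 at 31.5 and 51.1 CPM, each with overlap.

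Of 16 measured early genes induced through ERK, none was 2-fold or more higher (5.98% of all genes) and 3 were lower (6.71%), Egr1, Egr3 and Etv5, with a median log2 ratio of -0.22. Egr1 was at 296 and 116 CPM (log2 ratio -1.34), with every deleted-host plate below every control plate, as for 2.6% of the 9764 genes. Egr3 was at 30.7 and 12.8 CPM and Egr2 at 133 and 69.6 CPM, both with overlap. The Egr3 log2 ratio of -1.20 was -0.86 without deleted-host plate 3. Etv5, named after its value was seen, was at 11.4 and 3.57 CPM, and leaving out control plate 1 brought its log2 ratio to -0.07. Etv5 passed the 5 CPM filter only through control hosts, with 5 control and 3 deleted-host positive cells. Cd69 (303 and 588 CPM), Ier2 (304 and 458 CPM) and Srf (9.24 and 14.2 CPM) had their plates above those of control hosts. The same held for 1.81% of all genes. Srf encodes serum response factor and was also named after its value was seen. Its highest control plate and lowest deleted-host plate nearly touched, at 11.82 and 11.86 CPM. Only 14 control cells (3.80%) and 20 deleted-host cells (5.43%) reached 10 CPM of Srf, with overlapping intervals. Nr4a1 (929 and 1343 CPM) and Fos (452 and 618 CPM), named after their values were seen, were higher in deleted hosts with overlapping plates. Of the 16 genes, 7 had a log2 ratio above 0 and 9 below 0. Dusp5, an ERK target by textbook knowledge, was thus higher in a pool where some of these genes were higher and others lower.

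Of 14 measured immediate early and heat shock genes, a list that includes genes that rise during tissue handling, 2 were 2-fold or more higher (5.98% of all genes) and 5 had plates above those of control hosts (1.81%), with a median log2 ratio of 0.46. Junb was at 1285 and 2889.9 CPM (log2 ratio 1.17), Klf6 at 266 and 551 CPM (log2 ratio 1.05), Jun at 284 and 471 CPM, Ier2 at 304 and 458 CPM and Jund, named after its values were seen, at 188 and 261 CPM. The Klf6 log2 ratio was 0.93 without control plate 4. These 5 AP-1 and related genes moved in the direction of Dusp1 and Dusp5. Their part in the Dusp1 and Dusp5 differences was not tested. Of the 14 genes, 12 had a log2 ratio above 0 and 2 below 0. Zfp36, named after its values were seen, was lower in deleted hosts (312 and 229 CPM), with overlapping plates. The measured heat shock genes, also named after their values were seen, had overlapping plates. They were Hspa8 (2525 and 2741 CPM), Hsp90aa1 (378 and 471 CPM), Dnaja1 (337 and 393 CPM), Dnajb1 (176 and 200 CPM) and Hspe1 (55.3 and 51.5 CPM). Hspa1a (0.0907 and 0.109 CPM) was under 5 CPM in both pools, outside the 14 measured genes, and nothing is read from it.

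**Figure D5:**
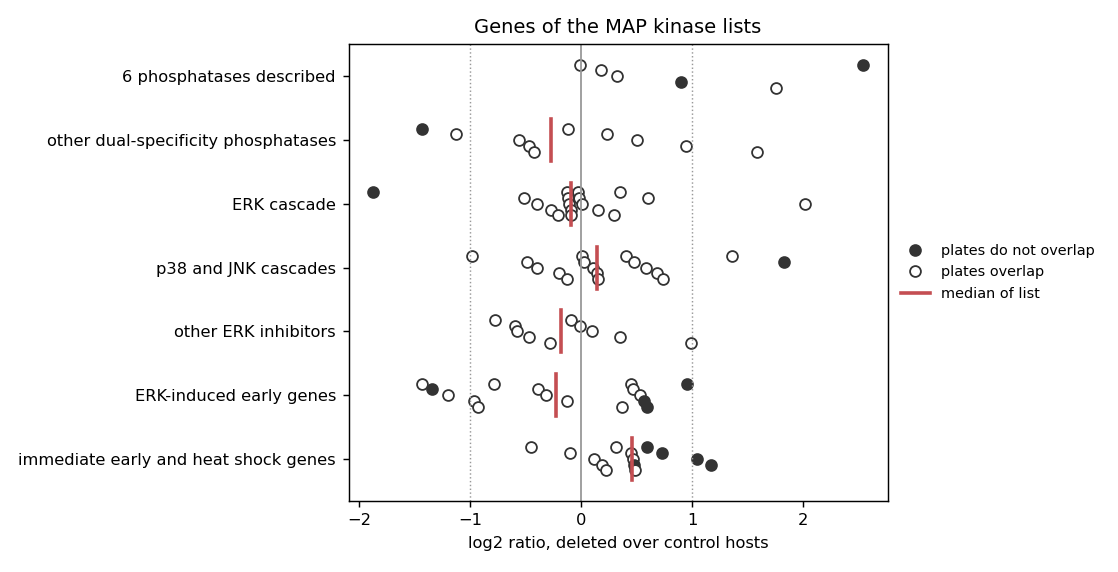
Log2 ratio (deleted over control hosts) of the 6 phosphatases described (first row) and of every measured member of lists with at least 10. Each gene has 1 point in each of its lists, filled where the plates of the pools do not overlap. A red line marks the median of each list below the first row. Dusp7, from a smaller list, has no point. Dusp5 is the highest point at 2.54, Egr1 lies at -1.34, and the medians run from -0.27 for other phosphatases to 0.46 for immediate early and heat shock genes in lists with at least 10 measured genes.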

How the data were processed

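The authors deposited unnormalized whole-number read counts for each gene in each well, made with featureCounts 2.0.1 on mm10 per the submitters' processing notes. Aligner, annotation, strandedness and the handling of multi-mapping reads were not given in the sources used here, so reads of overlapping genes on opposite strands cannot be told apart. Per the labels' protocols, cDNA was amplified with 25 PCR cycles, and no molecular identifiers are named, so reads copied from the same molecule cannot be told apart. The Poisson intervals therefore cover the counting of reads only, and for each member they are narrower than its range over plates.

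Counts were summed over the 92 cell wells of each of the 8 plates and over each pool, and scaled to 1000000 reads in genes (CPM). Plates were numbered in the order of their labels. The 32 control wells entered no level or ratio of the pools, and the 9 named noinput or dw, taken to hold no cell although the labels do not explain dw, set an alternative threshold for positive cells. In deleted hosts 1 cell well with under 10000 reads was kept. It held 9905 reads, within the 6698 to 12348 reads of the noinput and dw wells. Without it the deleted-host shares of positive cells were 38.1% for Dusp5 and 75.7% for Dusp1. No doublet caller was run on sorted single cells. The log2 ratio is of deleted-host over control CPM with a pseudocount of 1, which understates folds of low genes. A cell was positive at 10 CPM or more. Levels have exact Poisson and shares exact Clopper-Pearson 95% intervals. No test between groups was possible with 1 pool each.

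The members and all gene lists were chosen with earlier results of these data known. Named were all 6 members, up to 4 genes per list with the largest log2 ratio in size at 20 CPM or more, and the 5 genes most correlated with Dusp5. A gene that this rule names is not reported here. List genes were measured at 5 CPM or more in either pool. Alternatives covered scaling (edgeR 4.0.16 TMM factors, median-of-ratios factors), pseudocount, thresholds, thinning of cells to 500000 reads, and leaving out plates, top cells or shallow wells. The summing and ratio steps were tested on simulated data. Gene coordinates and upstream windows come from RefSeq, and strands, overlapping gene models and transcript lengths from GENCODE for GRCm38. An upstream window was found for 5 of the 6 members. Python 3.11.15, pandas 2.3.3, numpy 2.4.6, scipy 1.17.1, matplotlib 3.10.9 and R 4.3.3 were used.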

Additional observations from a re-analysis of the deposited data

Results flagged for a closer look

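Dusp10 on control plate 1 was at 188 CPM, and the other 3 control plates lay between 101.5 and 115 CPM. The gap to the nearest of the others was 0.848 of the whole range, above the Dixon 95% critical value for 4 values. It was 1 such case among the 12 sets of 4 plates examined (6 members in 2 pools), and chance gives about 1 in 20. Without that plate the Dusp10 log2 ratio was 0.58 in place of 0.33, still under 2-fold.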

How the results depend on the processing

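No paired analysis was possible because each group was 1 pool of mice and the plates carry no numbers shared between pools. The log2 ratios of all 6 members kept within the spread of their plates in 48 of 48 values with 1 plate left out and in 42 of 42 under other scaling, pseudocounts, cell means and left-out cells. Leaving out 1 plate gave 2.40 to 2.71 for Dusp5, 0.81 to 0.99 for Dusp1 and 1.34 to 2.52 for Dusp4. The Dusp4 spread was wide, with plates from 0.0140 to 5.37 CPM in control and 0.0208 to 15.98 CPM in deleted hosts. The Dusp5 share difference of 26.4 percentage points was 37.0 with positive cells set at 1 CPM, and 35.3 with cells above any noinput or dw well, a setting chosen after seeing the data. The Dusp1 share difference of 20.7 points was 0 at 1 CPM, where every cell was positive. The remaining 33 of 36 share differences moved by less than the spread of plates, among them that of Dusp1 at 50 CPM (15.5) and above the noinput and dw wells (16.3). Over all genes, those 2-fold or more higher went from 198 to 1176 without a filter and 13 at 100 CPM, and those lower from 228 to 1262 and 10. Genes with plates above control went from 131 to 279 without a filter and 58 at 100 CPM, and those below from 206 to 92 at 100 CPM. With 1 plate left out, which fewer plates make easier to meet, they were 217 to 239 and 319 to 353. Dusp4 rests on 10 positive cells in all, and thinning cells to 500000 reads left its shares at 0.546% and 2.20%. At the low levels of Dusp1, the noinput and dw wells also held reads.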

Other observations

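The 23 control wells with names ending in mBM10 or mBM100, which the labels do not explain, also held reads of the members. Summed over these wells, Dusp1 was at 448 CPM, Dusp5 at 99.5, Dusp6 at 82.0, Dusp2 at 68.3, Dusp10 at 33.0 and Dusp4 at 4.71 CPM. At 10 CPM or more, 22 wells were positive for Dusp1, 19 for Dusp5, 18 for Dusp6, 16 for Dusp2, 7 for Dusp10 and 1 for Dusp4.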
